A study of Mus musculus with 7 samples.

Results

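The genes described here encode the metalloproteases of the ADAM, ADAMTS and MMP families, the ADAMTS-like proteins and the TIMP inhibitors. They were taken from the expression table by symbol alone, as every gene named Adam, Adamts, Adamtsl, Mmp or Timp with a number and at most 1 further letter. This gave 83 of 37975 genes: 32 ADAM, 19 ADAMTS, 5 ADAMTS-like, 23 MMP and 4 TIMP genes. A MyoD peak was joined to each gene whose locus, extended by 10 kb at both ends, held its summit.

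ADAMs are membrane proteases that cut the outer parts off surface proteins such as Notch receptors and growth factor precursors, and some members have lost the catalytic site and act in adhesion. ADAMTS enzymes are secreted and cut matrix proteins, among them versican, aggrecan and procollagens, while ADAMTS-like proteins share their matrix-binding repeats but carry no protease domain. MMPs degrade collagens, laminins and other matrix proteins at the cell surface or beyond it, and TIMPs block MMPs and some ADAMs. In muscle these families act on the matrix around satellite cells and on surface proteins of fusing myoblasts.

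The cells were primary mouse myoblasts, grown from satellite cells sorted from animals of 4 to 6 weeks, and the myotubes obtained from them by 48 hours of culture in 5% horse serum. Polyadenylated RNA came from myoblasts in growth conditions and from myotubes at day 2, 1 sample each, and both carried a retroviral empty vector. Binding of MyoD, a master transcription factor of muscle, was mapped in 2-day myotubes by sequencing of immunoprecipitated chromatin, in 1 sample that its label traces to an earlier sample. The labels do not give the mouse strain, the number of animals, the share of cells left unfused at day 2, or a vector in the cells used for MyoD. The other 4 samples of the series, for histone H3 and 3 of its modifications, were not analysed here.

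Each gene has 1 FPKM value per condition (RNA fragments for each kilobase of transcript, scaled to the depth of the library), so no difference has a replicate check here. The labels' protocol names duplicates, but how they were merged is not given. Tests are those of the authors' deposited table, in which a gene is called at a q of at most 0.05. Errors are standard errors (SE) implied by its test statistics, and all log2 fold changes are 2-day myotubes over growing myoblasts. Of 8 muscle markers read as a check of the labels, 5 rose and 2 fell by the authors' deposited table. Myh3, the embryonic myosin, had 111 FPKM under growth conditions and 2362 at day 2, and Pax7, the satellite cell factor, 48.5 and 6.71. No RNA read total is given here, so absolute depth was unknown. In bulk RNA, fewer cells of a type and less RNA per cell cannot be told apart.

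Most of the genes were at or near 0. The authors' deposited table tested 32 of the 83 genes and left 51 untested, none of them above 0.826 FPKM in either condition. Of those 51, 24 were listed at 0 in both conditions, 10 at 0 in 1 condition, and 17 were above 0 in both. Every tested member reached at least 1.69 FPKM in 1 of the conditions. A gene can pass that filter through the condition in which it is high, so counts among the 32 describe these genes and not the family.

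The tested members fell more often than they rose. The authors' deposited table called 16 of 32 lower in myotubes, where 17.3% of all 15966 tested genes were called lower. It called 5 of 32 higher, where 6.52% of all tested genes were called higher, and left 11 uncalled. These shares of all tested genes are the background for each count of calls by family or list below. The summed FPKM of all 83 genes was 1114 in myoblasts and 594 in myotubes. By family, the sum was 217 and 104 for ADAMs, 141 and 52.1 for ADAMTS, 126 and 46.3 for MMPs and 603 and 307 for TIMPs. ADAMTS-like genes went the other way, with 28.1 in myoblasts and 83.9 in myotubes. On the scale of log2(FPKM + 1), the median difference of the 31 tested members with a mean of at least 1 FPKM was -1.32, beside -0.37 for all 15146 such genes.

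**Figure D1:**
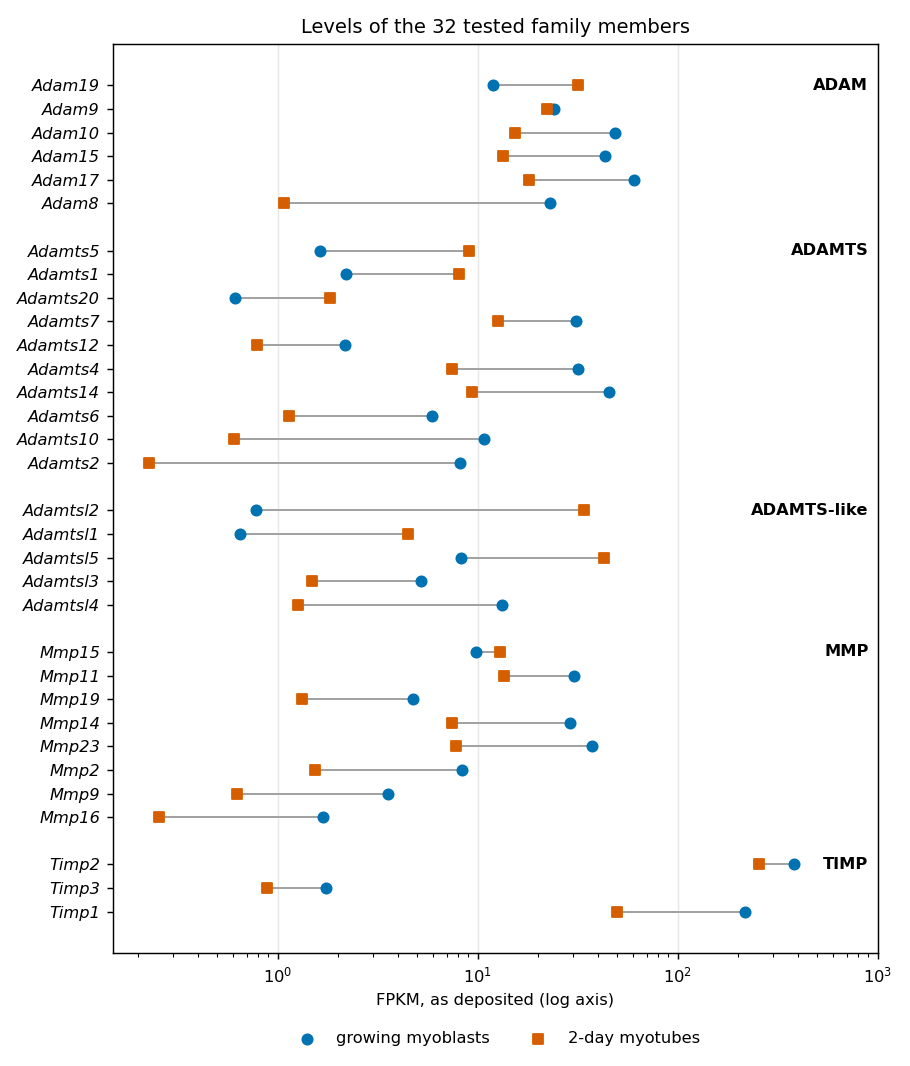
FPKM of the 32 tested members in growing myoblasts (blue circles) and 2-day myotubes (orange squares) on a log axis, grouped by family, 1 value per condition, the line joining both. Timp2 sits highest in both conditions, at 383 and 257 FPKM, and Adamtsl2 makes the longest step upward, from 0.783 to 33.9.

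Over the 15416 tested genes above 0 in both conditions, the median of the log2 fold changes in the authors' deposited table was -0.41. Centred on that median, with p-values from the implied SE and Benjamini-Hochberg adjustment, 10.2% of genes were higher and 10.3% lower, and among the members 6 were higher and 14 lower. Mmp14 and Adam10 lost their lower call by this measure, at adjusted p of 0.0884 and 0.0529. Adamtsl1 gained a higher call, at an adjusted p of 0.0431, and each of the other called members kept its call and direction.

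**Figure D2:**
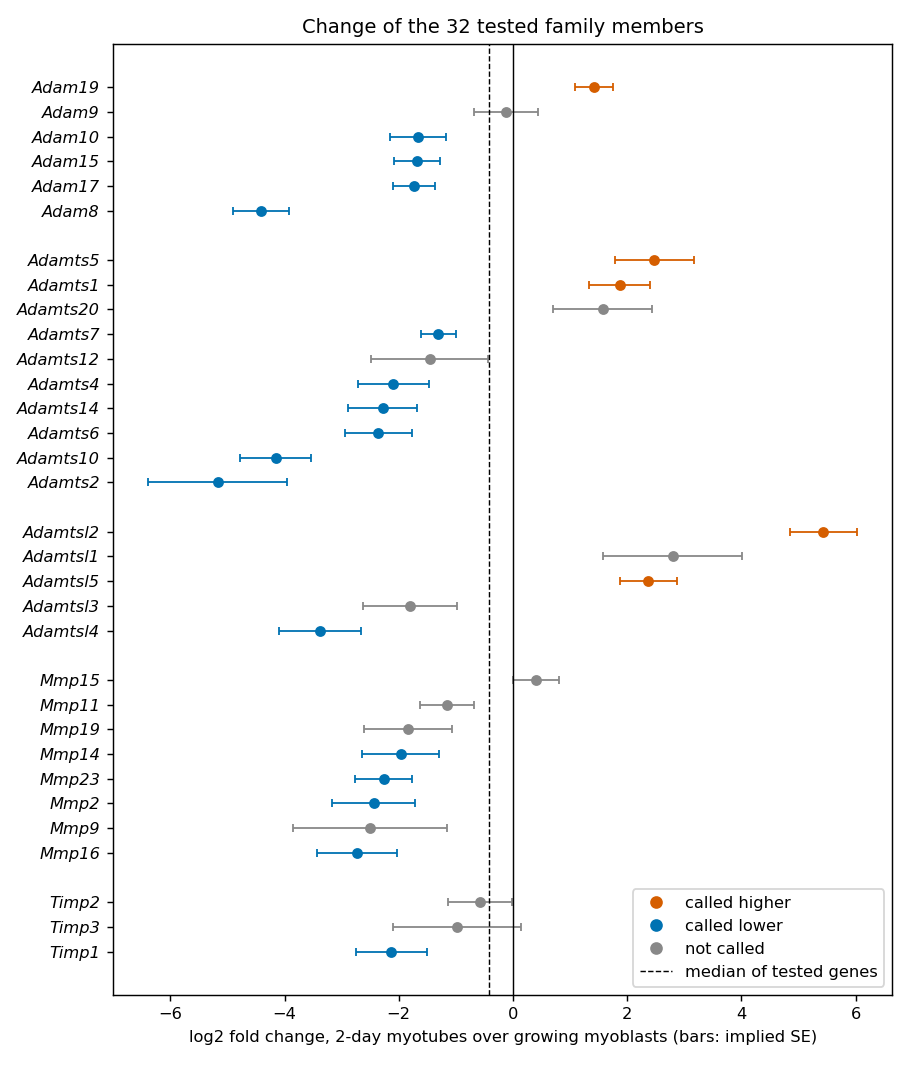
Log2 fold change of each tested member in the authors' deposited table, with bars of 1 implied SE, orange for called higher, blue for called lower and grey for not called. The dashed line is the median of tested genes, -0.41, and the 5 genes called higher are Adam19, Adamts1, Adamts5, Adamtsl2 and Adamtsl5.

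Among the 9 ADAMs that are proteases of somatic tissues, 6 were tested, and the authors' deposited table called 4 lower and 1 higher. Adam8, a protease best known from leukocytes, had 23.1 FPKM under growth conditions and 1.08 at day 2. That was a 21.4-fold fall in the authors' deposited table (log2 -4.42, SE 0.49, q listed as 0). Both general sheddases also fell, though Adam10 lost its call after centring (Benjamini-Hochberg adjusted value 0.0529). Adam17, which releases tumour necrosis factor and ligands of the EGF receptor, had 60.5 FPKM under growth conditions and 18.1 at day 2 (log2 -1.74, SE 0.37, q = 3.76e-05, authors' deposited table). Adam10, which cuts Notch and cadherins, was at 48.6 and 15.3 (log2 -1.67, SE 0.49, q = 0.00524, authors' deposited table). Adam15, an adhesion-linked member, was at 43.2 and 13.5 (log2 -1.68, SE 0.40, q = 0.000375, authors' deposited table). These 3 genes were the most abundant ADAMs in myoblasts and each was over 3-fold lower in myotubes.

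Of the 3 meltrins, ADAMs first described in muscle cells, 1 was called higher, 1 was not called and 1 was not tested. Adam19, meltrin beta, had 11.9 FPKM under growth conditions and 31.9 at day 2, and it rose in the authors' deposited table (log2 1.42, SE 0.33, q = 0.000224). It thereby became the most abundant ADAM of the myotube sample, above Adam9, meltrin gamma, at 24.2 and 22.1. Adam9 got no call in the authors' deposited table (log2 -0.13, SE 0.56, q = 0.910), and its difference was 0.29 after centring. Adam12, meltrin alpha, which has been linked to myoblast fusion, was at 0.673 and 0.403 FPKM and was not tested. Adam28 was listed at 0 in both conditions, and Adam33 at 0.197 and 0.

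Adam19 had 3 MyoD peaks, all within its locus, and the highest of them lay at chr11:45940828-45941457 in mm9. That peak held 44 tags at 31.98-fold enrichment, with a false discovery rate of 4.55%. Its summit was 73200 bp from the lower end of a locus of 92843 bp. RefSeq, on the GRCm38.p6 build, lists 3 transcription starts for Adam19 over a gene of 92846 bp, and the downstream start lies 73402 bp after the upstream one. Coordinates were not carried between the builds, so the distances are given side by side only. The 250 bases before that downstream start (chr11:46127654-46127903, plus strand, GRCm38.p6) hold 4 copies of the E-box CAGCTG, the palindromic hexamer that MyoD is known to bind. They are shown 5′ to 3′ with the E-boxes in capitals.
Adam19 downstream start: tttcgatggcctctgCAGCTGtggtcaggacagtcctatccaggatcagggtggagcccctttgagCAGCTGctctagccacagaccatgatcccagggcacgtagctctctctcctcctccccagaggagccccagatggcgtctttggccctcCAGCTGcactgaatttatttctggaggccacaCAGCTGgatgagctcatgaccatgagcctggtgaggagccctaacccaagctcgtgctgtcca
No CAGCTG stands in the 250 bases before either of the other Adam19 starts. The Adam19 locus of the expression table also holds Gm16033, at 4.73 and 16.2 FPKM, and Gm16034, at 3.58 and 6.34, neither called. How reads were divided between genes of 1 locus is not stated in the labels.

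The remaining ADAMs were at or near 0. Adam11, Adam22 and Adam23, which lack a working protease site and act in nervous tissue, were at 0.272 to 0.816 FPKM and were not tested. None of the 20 others, mostly genes of the male germ line, was tested, 13 of them were listed at 0 in both conditions, and the highest value was 0.826 FPKM, for Adam1a. Of 7 germ line markers checked beside them, 6 were listed at 0 and Ddx4 was at 0.0356 and 0.0385. Some carry paired names (Adam1a and Adam1b, Adam6a and Adam6b, Adam26a and Adam26b), and whether reads of such pairs were split between them was not tested. Adam9 lies on chromosome 8 at the end of a row of such genes. Its neighbours Adam18, Adam3, Adam5 and Adam32, within a span of 414678 bp (mm9, 25712717 to 26127394), stood at no more than 0.239 FPKM, against 24.2 for Adam9 in myoblasts.

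Among ADAMTS genes, both tested procollagen N-propeptidases, which trim fibrillar procollagens before fibril assembly, fell. Adamts2 had 8.19 FPKM under growth conditions and 0.227 at day 2, a 36.1-fold fall and the steepest among the members above 0 in both conditions by the authors' deposited table (log2 -5.17, SE 1.21, q = 0.000272). Adamts14 was at 45.7 and 9.38 (log2 -2.28, SE 0.60, q = 0.00146, authors' deposited table), and it was the most abundant ADAMTS of the myoblast sample. Adamts3, the other enzyme of this class, was listed at 0 in both conditions.

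Proteoglycanases, which cut versican and aggrecan, moved in both directions. Adamts5 had 1.63 FPKM under growth conditions and 9.10 at day 2, and Adamts1 had 2.21 and 8.09. Both rose in the authors' deposited table, Adamts5 by 5.57-fold (log2 2.48, SE 0.68, q = 0.00250) and Adamts1 by 3.66-fold (log2 1.87, SE 0.53, q = 0.00352). Both lie on chromosome 16, from 85794071 to 85803358 for Adamts1 and from 85858414 to 85901370 for Adamts5 in mm9. Adamts4, an enzyme of like specificity on chromosome 1, fell from 31.9 to 7.47 FPKM (log2 -2.09, SE 0.62, q = 0.00543, authors' deposited table). In myoblasts Adamts4 was therefore the highest of the 3 per unit of length, and in myotubes all 3 lay between 7.47 and 9.10 FPKM. Adamts20 was at 0.614 and 1.82 and was not called (q = 0.187, authors' deposited table). Adamts8, Adamts9 and Adamts15 were at no more than 0.375 FPKM and were not tested. Of the substrates, Vcan, versican, had 40.5 FPKM under growth conditions and 13.3 at day 2, a fall in the authors' deposited table (log2 -1.60, SE 0.43, q = 0.00201), and Acan was at 0.166 and 0.0553, not tested.

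Of the other 4 tested ADAMTS genes, 3 fell and 0 rose by the authors' deposited table. Adamts10, a fibrillin-binding member, had 10.8 FPKM under growth conditions and 0.607 at day 2, a 17.8-fold fall (log2 -4.15, SE 0.62, q = 1.24e-09, authors' deposited table). Its close relative Adamts6 was at 5.89 and 1.15 (log2 -2.36, SE 0.59, q = 0.000709, authors' deposited table). Adamts7, which cuts cartilage oligomeric matrix protein, was at 31.2 and 12.6 (log2 -1.31, SE 0.31, q = 0.000358, authors' deposited table). Its relative Adamts12 was at 2.16 and 0.786 and was not called. Adamts7 shares its locus with Tbc1d2b, called lower in the authors' deposited table at 20.0 and 2.17 FPKM, and with Gm16200, at 13.5 and 10.9. Adamts13, the von Willebrand factor protease, and Adamts18 were listed at 0 throughout, and Adamts16, Adamts17 and Adamts19 were at no more than 0.110 FPKM.

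All 5 ADAMTS-like genes were tested, and this group held the largest rise. Adamtsl2, a secreted glycoprotein that binds fibrillin and latent TGF-beta binding protein, had 0.783 FPKM under growth conditions and 33.9 at day 2. That is a 43.3-fold rise in the authors' deposited table (log2 5.44, SE 0.59, q listed as 0). Adamtsl5, another fibrillin-binding member, was at 8.27 and 42.8 (log2 2.37, SE 0.50, q = 3.98e-05, authors' deposited table). Adamtsl1 was at 0.645 and 4.48 and got no call in the authors' deposited table (log2 2.80, SE 1.22, q = 0.0796). In the other direction, Adamtsl4, which supports the microfibrils of the lens ligament, was at 13.3 and 1.27 (log2 -3.38, SE 0.72, q = 5.37e-05, authors' deposited table). Adamtsl3 was at 5.19 and 1.49 and was not called (q = 0.0994, authors' deposited table). Adamtsl2 and Adamtsl5 were thus the highest ADAMTS-type genes of the myotube sample, above every ADAMTS enzyme. Fbn1, which encodes fibrillin-1, had 9.91 FPKM under growth conditions and 1.62 at day 2, and Ltbp1 had 81.9 and 21.4, both called lower in the authors' deposited table.

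Adamtsl2 was also the member with the most MyoD peaks, 5 within 10 kb. The highest by enrichment, at chr2:26963500-26964156 in mm9, held 35 tags at 31.5-fold enrichment (false discovery rate 2.62%), with its summit inside the locus and 636 bp from the upper end. The deepest, at chr2:26925167-26926059, held 49 tags at 10.1-fold (4.72%) and lay 9491 bp below the locus, just inside the limit of 10 kb. The others held 19 to 29 tags. Of these, that at chr2:26952100-26952649 lay inside the locus, with a false discovery rate of 23.71%. That at chr2:26931046-26931608 lay 3594 bp below the locus, and that at chr2:26968172-26968652 lay 3819 bp above it. No other gene of the table overlaps the locus itself. Genes beside it were not listed, so whether the peaks outside the locus lie nearer to another gene is not shown here. Adamtsl5 had no peak within 10 kb, and its nearest summit was 31331 bp away.

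Promoter sequence was available from RefSeq (GRCm38.p6) for 52 of the 83 genes, with 57 starts, and the 250 bases before each start were searched on both strands. CAGCTG stood before 11 of the 57 starts (19.3%), against 13% of all 32851 starts. The looser E-box CANNTG, which includes CAGCTG, stood before 40 (70.2%), against 66.2% of all. Of the 5 members called higher, 4 had promoter sequence, and CAGCTG stood before 3 of their 6 starts, of Adam19, Adamtsl2 and Adamtsl5. Of the 16 called lower, 10 had sequence, and it stood before 2 of their 11 starts (18.2%), of Adam17 and Adamts2. These are few starts to set beside the 13% of all starts. A match describes letters in a window and is not a binding site, and no peak was placed on these windows because the builds differ. The 4 windows other than that of Adam19 are printed 5′ to 3′ with CAGCTG in capitals, since they belong to Adamtsl2 and Adamts2, with the steepest called rise and fall, to Adamtsl5 and to a main sheddase. Adamtsl2 is chr2:27079129-27079378 (plus), Adamtsl5 chr10:80348449-80348698 (minus), Adamts2 chr11:50601835-50602084 (plus) and Adam17 chr12:21373633-21373882 (minus).
Adamtsl2: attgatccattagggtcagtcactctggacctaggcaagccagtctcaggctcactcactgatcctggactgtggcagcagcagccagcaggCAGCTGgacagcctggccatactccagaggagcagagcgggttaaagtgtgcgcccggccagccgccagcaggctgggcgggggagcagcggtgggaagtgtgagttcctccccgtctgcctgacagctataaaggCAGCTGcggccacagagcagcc
Adamtsl5: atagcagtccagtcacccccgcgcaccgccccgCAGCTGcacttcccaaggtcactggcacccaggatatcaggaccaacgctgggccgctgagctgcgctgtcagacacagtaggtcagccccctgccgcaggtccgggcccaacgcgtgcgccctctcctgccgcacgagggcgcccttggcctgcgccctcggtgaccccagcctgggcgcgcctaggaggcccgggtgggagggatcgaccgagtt
Adamts2: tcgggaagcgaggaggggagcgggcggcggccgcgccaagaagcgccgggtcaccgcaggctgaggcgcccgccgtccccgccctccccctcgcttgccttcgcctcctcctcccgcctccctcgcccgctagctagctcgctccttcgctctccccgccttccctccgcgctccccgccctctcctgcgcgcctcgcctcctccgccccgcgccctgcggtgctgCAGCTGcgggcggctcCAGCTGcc
Adam17: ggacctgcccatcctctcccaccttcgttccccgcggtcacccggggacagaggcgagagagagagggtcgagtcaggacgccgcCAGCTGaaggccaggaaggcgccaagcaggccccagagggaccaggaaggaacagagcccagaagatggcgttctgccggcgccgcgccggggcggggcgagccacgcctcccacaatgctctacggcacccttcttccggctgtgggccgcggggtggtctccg

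Of 8 tested MMPs the authors' deposited table called 4 lower and 0 higher, and 3 were lower after centring, without Mmp14. For all tested genes the shares were 17.3% called lower, and 10.3% lower after centring. Mmp14, the membrane-type enzyme that activates the gelatinase Mmp2, had 29.1 FPKM under growth conditions and 7.43 at day 2 (log2 -1.97, SE 0.68, q = 0.0193, authors' deposited table), a call lost also at a q of at most 0.01. Mmp2 itself was at 8.32 and 1.53 (log2 -2.44, SE 0.73, q = 0.00603, authors' deposited table). Mmp23, an unusual member anchored by its amino terminus, was the most abundant MMP in myoblasts, at 37.4 and 7.82 (log2 -2.26, SE 0.50, q = 9.32e-05, authors' deposited table). Mmp16, another membrane-type enzyme, was at 1.69 and 0.254 (log2 -2.73, SE 0.70, q = 0.00103, authors' deposited table).

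The other 4 tested MMPs were not called. Mmp9, the second gelatinase, had 3.56 FPKM under growth conditions and 0.625 at day 2, with the largest SE among the tested members (log2 -2.51, SE 1.35, q = 0.177, authors' deposited table). Mmp11, stromelysin-3, was at 30.2 and 13.5 and just missed the threshold (log2 -1.16, SE 0.47, q = 0.0544, authors' deposited table). Its locus also holds Chchd10, which rose from 16.7 to 177 FPKM in the authors' deposited table. Mmp19 was at 4.75 and 1.33 (q = 0.0661, authors' deposited table). Mmp15, a membrane-type enzyme, was the only tested MMP with the higher value in myotubes, 12.9 against 9.79, a difference about as large as its error (log2 0.40, SE 0.40, q = 0.537, authors' deposited table). In the myotube sample Mmp11 and Mmp15 were thus the most abundant MMPs.

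The interstitial collagenases and their neighbours were at or near 0. On chromosome 9 in mm9, 10 MMP genes lie in a row from 7272513 to 7699585: Mmp13, Mmp1b, Mmp12, Mmp3, Mmp1a, Mmp10, Mmp8, Mmp27, Mmp20 and Mmp7. None was tested, 6 were listed at 0 in both conditions, the highest value was 0.301 FPKM, for Mmp10 in myoblasts, and the span of 427073 bp held 0 MyoD peaks. Mmp1b and Mmp12 share a merged locus there, as do Mmp20 and Mmp7. Some low values lay on shared steps. Mmp3 and Adamts19 had the same log2 fold change, 1.11, and Mmp13 and Mmp17 shared another, -1.89, in the authors' deposited table. The most frequent log2 ratio among 2931 untested genes of low level was 0.114, held by 191 of them, and the values above equal it plus 1 and minus 2. Whole numbers of reads would give such steps, but no read counts were available and this was not tested.

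This row of genes is known for promoters with an AP-1 element, the site of Fos and Jun dimers. The letters TGANTCA stood before 11 of the 57 member starts (19.3%), against 6.75% of all starts, and 8 of the 11 belonged to genes of the chromosome 9 row, all 10 of which had promoter sequence. The other 3 belonged to Adam19, Adam25 and Adam29. The stretches are printed 5′ to 3′ from RefSeq (GRCm38.p6), with the motif in capitals and 15 bases on each side, since they show where the motif lies at 8 genes with next to no RNA here. Its letters were TGAGTCA at 6 of the 8, TGACTCA at Mmp13 and TGAATCA at Mmp20. The motif began between 35 and 95 bases before the start. In order of position, the stretches are chr9:7272464-7272500 (plus) for Mmp13, chr9:7347315-7347351 (plus) for Mmp12, chr9:7388098-7388134 (minus) for Mmp1b, chr9:7445761-7445797 (plus) for Mmp3, chr9:7464053-7464089 (plus) for Mmp1a, chr9:7502264-7502300 (plus) for Mmp10, chr9:7628121-7628157 (plus) for Mmp20 and chr9:7692012-7692048 (plus) for Mmp7.
Mmp13: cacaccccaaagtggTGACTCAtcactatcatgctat
Mmp12: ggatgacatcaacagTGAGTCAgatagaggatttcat
Mmp1b: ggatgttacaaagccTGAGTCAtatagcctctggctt
Mmp3: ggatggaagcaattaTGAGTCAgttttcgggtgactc
Mmp1a: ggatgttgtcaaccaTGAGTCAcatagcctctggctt
Mmp10: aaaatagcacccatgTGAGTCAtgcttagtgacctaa
Mmp20: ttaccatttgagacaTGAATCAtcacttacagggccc
Mmp7: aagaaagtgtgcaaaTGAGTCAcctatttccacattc
Of the 16 members called lower, 10 had promoter sequence, and TGANTCA stood before 0 of their 11 starts. Of the 5 called higher, 4 had sequence, and it stood before 1 of their 6 starts, of Adam19. So few starts cannot show a departure from the 6.75% of all starts.

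In FPKM, a scale per transcript length, Timp1 and Timp2 were above every protease of the list in both conditions. Timp2 had 383 FPKM under growth conditions and 257 at day 2 and got no call in the authors' deposited table (log2 -0.58, SE 0.56, q = 0.523). Timp1, the inducible inhibitor, was at 218 and 49.8, a 4.37-fold fall (log2 -2.13, SE 0.62, q = 0.00451, authors' deposited table). Timp3, the matrix-bound inhibitor of ADAM17 and ADAMTS enzymes, was at 1.76 and 0.886 and was not called (q = 0.595, authors' deposited table), and Timp4 was at 0.166 and 0, not tested. Summed over the family, TIMP FPKM was 4.78 times the MMP sum in myoblasts and 6.64 times in myotubes. These ratios carry no error, and the uncalled Timp2 made up most of the TIMP sums of 603 and 307 FPKM. Timp1 lies within a merged locus with Araf, called higher at 59.4 and 106 FPKM in the authors' deposited table, and Syn1, at 5.00 and 2.55.

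The genes around these families were read from a list of 66 regulators, related proteases and substrates, of which 50 were tested. The authors' deposited table called 27 lower and 3 higher, against the 17.3% and 6.52% of all tested genes. Of 7 tested inhibitors and receptors outside the families, 6 fell and 0 rose by the authors' deposited table. They included Serpine2, a serine protease inhibitor, at 73.2 FPKM under growth conditions and 13.3 at day 2 (log2 -2.46, SE 0.67, authors' deposited table). Reck, a membrane-anchored MMP inhibitor, was at 2.10 and 0.422 and called lower (q = 0.0394, authors' deposited table), a call it lost after centring. Cd44, a surface receptor that holds MMPs and is itself shed, was at 251 and 44.0 (log2 -2.51, SE 0.31, authors' deposited table). Bsg, an inducer of MMPs, was at 336 and 284 and was not called.

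Of 7 tested plasminogen and astacin genes, 5 fell and 0 rose by the authors' deposited table, among them Plau, the urokinase, at 21.6 and 3.51 FPKM, its receptor Plaur, at 40.1 and 8.87, and Pcolce2, an enhancer of procollagen processing, at 36.6 and 5.65. Bmp1, which removes the other end of procollagens from the one that Adamts2 cuts, was at 21.3 and 3.90 (log2 -2.45, SE 0.40, authors' deposited table). Plaur lost its lower call after centring. Of the genes that mature or traffic ADAMs and MMPs, 2 of 10 tested rose and 1 fell by the authors' deposited table. Tspan15, a tetraspanin partner of Adam10, rose from 1.13 to 8.90 FPKM (log2 2.98, SE 0.73, q = 0.000475, authors' deposited table), while its relative Tspan5 fell from 90.8 to 34.5 in that same authors' deposited table. Rhbdf1, an escort of Adam17, rose from 35.8 to 67.0 FPKM in the authors' deposited table. Furin, which activates many members, was at 75.4 and 45.9 and was not called, and Tspan17, at 59.5 and 91.1, gained a higher call by centring alone.

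**Figure D3:**
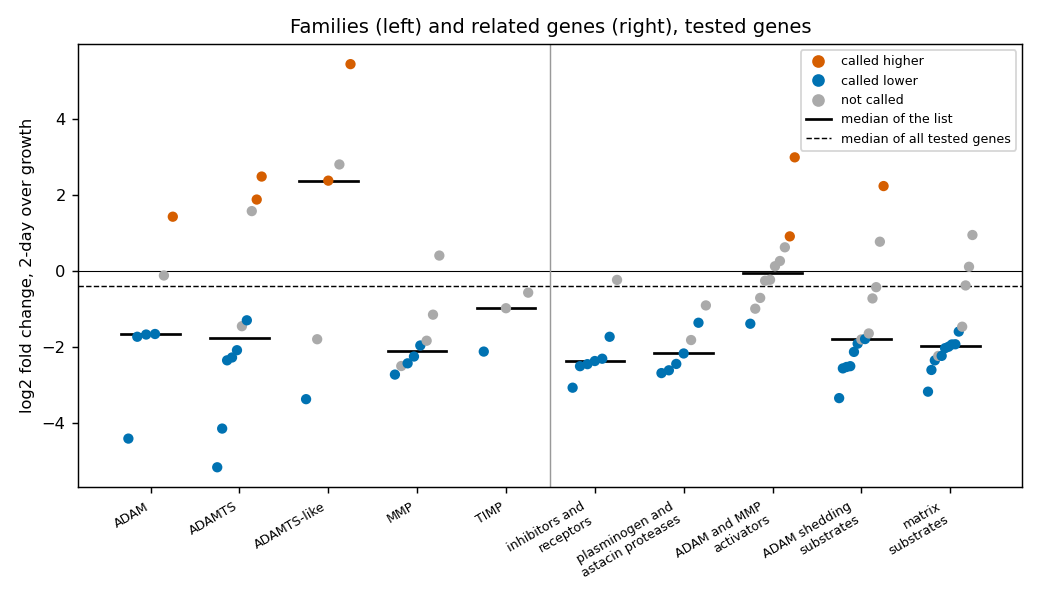
Log2 fold changes of tested genes in the authors' deposited table, the 5 families on the left and the 5 lists of related genes on the right, 1 point per gene, orange for called higher, blue for called lower and grey for not called. Black bars are list medians and the dashed line is the median of all tested genes, -0.41. The ADAMTS-like family is the only set with its median above 0.

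Substrates of the enzymes were read last. Of 13 tested ADAM shedding substrates the authors' deposited table called 7 lower and 1 higher. For all tested genes the shares were 17.3% and 6.52%. Cd44 is among those called lower and was also counted with the inhibitors and receptors above. Notch3 was at 37.4 and 6.47 FPKM and Areg, the EGF receptor ligand amphiregulin, at 8.26 and 1.39, both called lower in the authors' deposited table. Ncam1, an adhesion molecule of fusing myoblasts, was the gene called higher, at 159 and 746 FPKM (log2 2.23, SE 0.40, authors' deposited table). Of 14 tested matrix substrates 9 fell and 0 rose by the authors' deposited table, such as Col1a2, a chain of type I collagen, at 8.28 and 0.912 (log2 -3.18, SE 0.66, authors' deposited table). Sparc, at 782 and 840 FPKM, and Bgn, at 6.42 and 12.3, were not called.

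Several of these genes are typical of fibroblasts, so markers of other cell types were read beside them. The 6 fibroblast markers summed to 7.90 FPKM in myoblasts and 1.47 in myotubes. Most of that sum came from Thy1, which was at 3.70 and 0.516 and called lower (q = 0.00459, authors' deposited table), and Col1a1, at 3.56 and 0.752 and not called. Col1a1 is also 1 of the matrix substrates counted above. Dpt and Lum were listed at 0 in both conditions, Dcn was at 0.0594 and 0, and Pdgfra at 0.576 and 0.204. Of the leukocyte markers, 7 of 8 were in the table and summed to 31.6 and 27.2 FPKM. Ptprc was at 0 and 0.0224, Csf1r at 0 and 0.162, Lyz2, Emr1 and Ly6g at 0 in both, Cd68 at 11.0 and 2.80 and Itgam at 20.6 and 24.3. Endothelial markers summed to 4.71 and 0.431, of which Pecam1, called lower in the authors' deposited table, made up 4.62 and 0.213. The sums were 75.5 and 9.74 for smooth muscle and pericyte markers, of which Rgs5, also called lower there, made up 73.1 and 7.72, and 0.272 and 0.228 for adipocyte markers. The part of such cells in the falls of the members was not tested.

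MyoD peaks were described next, to ask which of these loci are bound in the myotubes. A peak within 10 kb was found at 29 of the 83 genes (34.9%), against 27.5% of all genes in the table. Among tested members the count was 18 of 32 (56.2%), against 38.8% of tested genes. Locus length moved with this. The median locus was 108 kb for members with a peak, 25.1 kb for members without, and 26.4 kb for all tested genes. Of 16 tested members with a locus of at least 50 kb, 12 had a peak, where 58.4% of all tested genes of that length did. Of 16 with a shorter locus, 6 had a peak, where the share of all such genes was 29%.

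Of the 21 called genes 9 had a peak (42.9%), against 43.8% of all called genes, a share near the background. Of the 5 called higher, Adam19, Adamts5 and Adamtsl2 had a peak, where 58.5% of all genes called higher did. Of the 16 called lower, 6 had a peak (Timp1, Mmp16, Adamts7, Adamts6, Adam10 and Adamts14), where 38.3% of all genes called lower did. Adamts1, which also rose, had none, and its nearest summit was 17138 bp away.

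The 29 genes held 55 distinct peaks, 1 of which counts for both Adam1a and Adam1b in a shared locus. The tags per peak ran from 7 to 49 around a median of 13, with enrichments from 5.83-fold to 71.8-fold around a median of 15.99, beside 14 tags and 15.3-fold for all 10756 peaks. Tags, enrichment and false discovery rate stand as the authors' peak caller gave them. The rate was at most 5% for 12 of the 55 (21.8%), against 19.4% of all peaks. In 24 of the 29 genes a summit lay inside the locus, and in 5 only outside it. The member closest to the 10 kb limit from outside was Adamtsl4, with its nearest summit 16690 bp away. The closest to it from inside by its nearest peak was Adam11, 8026 bp below the locus.

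**Figure D4:**
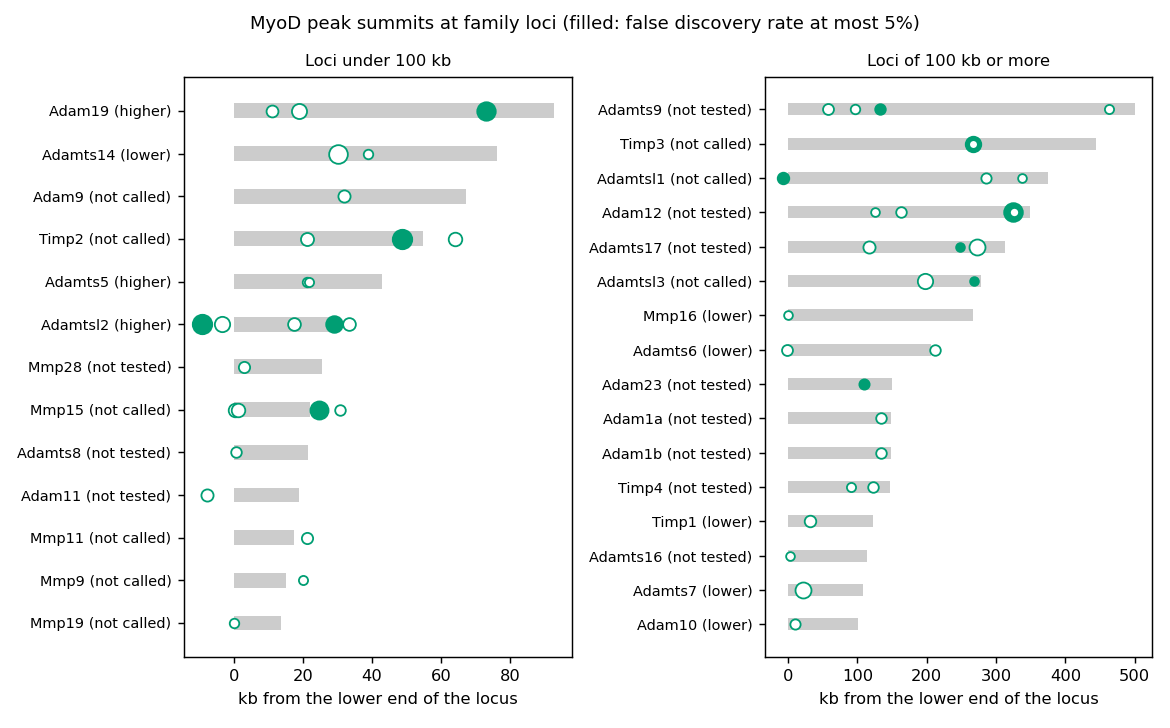
MyoD peak summits (circles, area growing with tags) along the loci (grey bars) of the 29 members with a peak, in kb from the lower end of each locus, in mm9, the shorter loci on the left. Filled circles have a false discovery rate of at most 5%, and each name is followed by the call of its gene. Adamtsl2 carries 5 circles, and Adam12 and Adamts17, which were not tested, carry 4 and 3.

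The most enriched of these peaks stood at a gene with almost no RNA. At chr7:74257294-74257962 (mm9), inside the Adamts17 locus, 32 tags gave 71.8-fold enrichment, with a false discovery rate of 7.89%, while Adamts17 was at 0.0541 and 0.0698 FPKM. Adamtsl1 had the next, 60.0-fold from 15 tags at chr4:85691853-85692200, 7879 bp below its locus. Adam12 also had a deep peak, at chr7:141399613-141400161, with 45 tags at 20.7-fold enrichment (3.42%). Its transcript was at 0.673 and 0.403 FPKM. Adamts9, at 0.292 and 0.268 FPKM, held 4 peaks of 8 to 13 tags in a locus of 500192 bp. Of the 29 members with a peak, 11 were not tested for expression.

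Among the other enriched peaks, Adam23 held 1 at chr1:63601645-63601830, with 11 tags at 27.3-fold and a false discovery rate of 2.88%. Adam9 held 1 at chr8:26091785-26092399, with 17 tags at 26.4-fold (6.48%), and Adamts16 1 at chr13:70868908-70869167, with 7 tags at 25.65-fold (10.45%). Adamts6 had 2, of which that at chr13:105076798-105077395, 877 bp below the locus, held 13 tags at 25.1-fold (8.34%). Of these 4 genes, Adamts6 alone was called. The single peaks of Adam10, Adamts7, Adamts8, Mmp28, Mmp9, Mmp11 and Timp1 held 8 to 32 tags, and the 2 peaks each of Adamts14 and Adamtsl3 held 7 to 45.

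All 4 TIMPs and 6 of the 23 MMPs had a peak, where 27.5% of all genes in the table did. The TIMP loci were long, from 54673 bp for Timp2 to 443773 bp for Timp3. Of all tested genes with a locus of at least 50 kb, 58.4% had a peak. Of the 10 TIMPs and MMPs with a peak, Mmp16 and Timp1 were called, and Mmp28 and Timp4 were not tested. The Timp1 peak held 15 tags (false discovery rate 20.09%), in a locus of 123192 bp that overlaps 7 other genes. Timp2 had 3, the deepest at chr11:118210463-118211416, with 49 tags at 14.96-fold enrichment and a false discovery rate of 2.07%, the lowest rate of the 55. Mmp15 had 4, of which the deepest, at chr8:97900155-97900875, held 42 tags at 12.7-fold (3.34%) and lay 2495 bp above the locus. Another Mmp15 peak had its summit 45 bp inside the lower end of the locus. Mmp16 had 1 peak of 7 tags, 487 bp inside its locus, and Mmp19 1 peak of 9 tags, 52 bp below its locus. Timp3 had 2 peaks in a merged locus of 443773 bp, and Timp4 had 2 in one of 147726 bp. For 8 members with a peak the locus overlaps that of another tested gene, and the peak counts for both.

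The 5 genes called higher differed in the number of peaks. Adamtsl2, at 43.3-fold, had 5 peaks, Adamts5, at 5.57-fold, had 2 of 8 and 9 tags, and Adam19, at 2.68-fold, had 3 of 16 to 44 tags. Adamtsl5, at 5.17-fold, and Adamts1, at 3.66-fold, had none within 10 kb. Among the steepest falls, Adamts2, Adam8, Adamts10 and Adamtsl4 had none within 10 kb, with nearest summits 16690 to 244968 bp away. Mmp16, the next steepest called fall, had 1. Of all 16 members called lower, 6 had a peak, where 38.3% of all genes called lower did. These are 1 value per condition and 1 peak list, with no test of the relation.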

How the data were processed

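Of 7 samples, 3 were used and their titles place each in a separate group: RNA of growing myoblasts, RNA of 2-day myotubes and MyoD ChIP of 2-day myotubes. The authors deposited FPKM values, 1 per gene and condition, in a table of Cuffdiff layout, in 2 identical copies of which 1 was used. CASAVA 1.7.0, MACS 1.3.7, Cuffdiff and mm9 stand in the submitters' processing notes. Not given in the sources used here: aligner, annotation, normalization setting and the way in which the duplicates named in the labels' protocol were merged. The deposited p-value and q-value columns are the authors' test. The deposited log2 fold changes and test statistics are treated as a score with no fixed range, since the largest possible number marks genes at 0. The deposited p score of a peak is 10 times the negative log10 of p, per the file headers.

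MACS called peaks at a p of 1.00e-05 on 8637045 ChIP and 9129012 control tags, per the file headers. Of these, the headers list 4049890 ChIP and 4371189 control tags as unique. Deposited tags per peak are counts, enrichment is a fold ratio over background and the false discovery rate is a percent, all from the authors' caller. Coordinates count from 1.

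The SE is the size of the log2 fold change over the test statistic. Summits were joined to loci within 10 kb. Medians used a pseudocount of 1 FPKM and a mean of at least 1 FPKM. The centring step was tested on simulated data in which few genes changed, drawn evenly up or down. The calls in these data are more numerous and mostly lower, so that run cannot show how centring acts on them. The work used Python 3.11.15, pandas 2.3.3 and scipy 1.17.1. All 83 identifiers matched the name table. Members, lists and alternatives were chosen with earlier results of these data known. Named genes were members that were called, reached 10 FPKM, are TIMPs or had a peak, and of related genes the called ones with the largest changes at 5 FPKM or more. The values of 1 related gene are not reported here. Some related genes named beside them (uncalled members of a list, partners and substrates of a described member, marker genes and genes of a shared locus) were chosen after their values were seen.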

Additional observations from a re-analysis of the deposited data

How the results depend on the processing

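With 1 value per condition and 1 peak list, leaving out a replicate was not possible. No paired analysis was possible because each condition has 1 deposited value per gene. At a q of at most 0.01 20 members were called, with Mmp14 lost, and after centring 20 were called. Under centring 28 of 32 members kept side and direction, Mmp14 and Adam10 became weaker, Adamtsl1 passed, and the uncalled Adam9 reversed to 0.29. For all genes, the share of calls that were higher moved from 27.3% to 49.7% after centring, and for members from 23.8% to 30%. Of the related genes, 26 were called at a q of at most 0.01 and 29 after centring, against 30. Without members that share a locus with a tested gene 16 calls were left, 4 higher and 12 lower.

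The members' median log2 ratio, -1.32, was -1.67 with a pseudocount of 0.1 FPKM, -0.82 with 5 FPKM, -1.31 with no filter, -1.60 with a mean of at least 5 FPKM, and -0.94 after subtracting the median over all genes with a mean of at least 1 FPKM; the pseudocount shrinks ratios of low genes by construction. With peaks of a false discovery rate of at most 5%, 11 members had a peak, 2 of them called, since that list holds 2086 of 10756 peaks. Among all genes, 11.7% of those tested and 13.9% of those called had such a peak, while the 11 include untested members. Giving a peak only to the nearest tested locus left 16 of the 32 tested members, where the share of all tested genes was 33.8%. This drops the 11 untested members with a peak by construction. By the same rule, the further loss is of members whose peaks went to another tested locus. Inside the locus, within 5 kb and within 50 kb the counts were 24, 27 and 38, untested members included. The shares of all tested genes were 27.5%, 34.6% and 59.9%. Without members in shared loci, an alternative chosen after seeing the data, 21 members and 6 called members had a peak. The 51 untested genes were all at or under 0.826 FPKM, and their absolute depth is unknown.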

Other observations

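Relatives outside the naming rule were also read. Pappa2, a pappalysin metalloprotease that cuts binding proteins of insulin-like growth factors, had 0.251 FPKM in growing cells and 11.9 at day 2. It rose in the authors' deposited table (log2 5.57, SE 1.00, q = 7.23e-07) and had 0 MyoD peaks within 10 kb, and it was chosen after its values were seen. Papln, papilin, was at 0.0985 and 0.0975, Adamdec1 was listed at 0, and Thsd4, an ADAMTS-like gene under another name, was at 0.0396 and 0.0229 in 1 of its 2 rows and listed at 0 in the other. None of these 3 genes was tested.

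Genes that share a merged locus with a member did not always move with it. Efna4, in the locus of Adam15, was at 17.5 and 3.38 FPKM and was called lower like Adam15 in the authors' deposited table, while Iah1, in the locus of Adam17, was at 10.6 and 9.89 and was not called. Tmem198b, in the locus of Mmp19, was at 17.1 and 10.7 and was not called.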
